A study of Rattus norvegicus with 11 samples.

Results

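The nuclear genes of the respiratory complexes II to V were examined in the hippocampus of rats on a control diet or a ketogenic diet. Members were the probe sets whose 1 annotated gene symbol begins with Sdh, Uqcr, Cox and a digit, or Atp5, or is Cyc1 or Cycs. This rule, which uses no measured value, found 62 of the 15923 probe sets on the array, for 57 of 10412 named genes. By complex they were 10 probe sets of complex II, 8 of complex III, 24 of complex IV and 19 of complex V, and 1 of a pseudogene, Cox6c-ps1. Cycs, which encodes cytochrome c, had no probe set of its own, since both of its probe sets are shared with related sequences. Of the 62 probe sets 54 were bright enough to be tested, for 52 genes of the complexes and the pseudogene.

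Total RNA was hybridised to 11 arrays, 6 from the control diet and 5 from the ketogenic diet, which replaces most carbohydrate with fat and is known to lower the frequency of epileptic seizures. Nothing else separates the groups in the labels, and strain, age, sex and length of feeding are not stated in them. Whether every sample came from its own animal is not stated either, and the p-values cover the spread among these samples alone, which may be technical. Values are log2 signals after quantile normalization, and a difference is always ketogenic minus control.

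Complexes II to V form the later part of oxidative phosphorylation in the inner mitochondrial membrane. Complex II, succinate dehydrogenase, and complex III pass electrons towards cytochrome c, complex IV hands them to oxygen, and complex V, ATP synthase, uses the proton gradient that complexes III and IV help to build to make ATP. Neurons of the hippocampus take most of their ATP from this pathway. Apart from complex II, the complexes combine subunits encoded in the nucleus with others encoded by mitochondrial DNA.

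Over all 54 tested member probe sets, 9 were higher and 1 was lower on the ketogenic diet at a limma adjusted p below 0.05. The background over all 11899 tested probe sets was 8.62% higher and 7.87% lower, or 16.5% in either direction, against 18.5% of the members. In either direction together the members' share was therefore near the background. By gene, complex V had 5 of 16 higher and 0 lower, complex III 2 of 8 and 0, complex II 1 of 8 and 1, and complex IV 1 of 20 and 0. The median log2 difference was 0.11 for complex V, 0.016 for complex III, -0.0024 for complex II and -0.029 for complex IV, beside -0.0032 over all 8397 named genes tested. The members of complexes II and IV include assembly factors, while those of III and V do not. Over subunits alone the median was 0.045 for 11 genes of complex IV and 0.021 for 4 genes of complex II. Complex V had the highest median of the 4 complexes, and 11 of its 16 genes, or 68.75%, had a positive difference. The positive share was 49.4% over all named genes tested and 72.7% over the 11 subunit genes of complex IV. The complexes share their arrays and were not tested against each other.

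**Figure D1:**
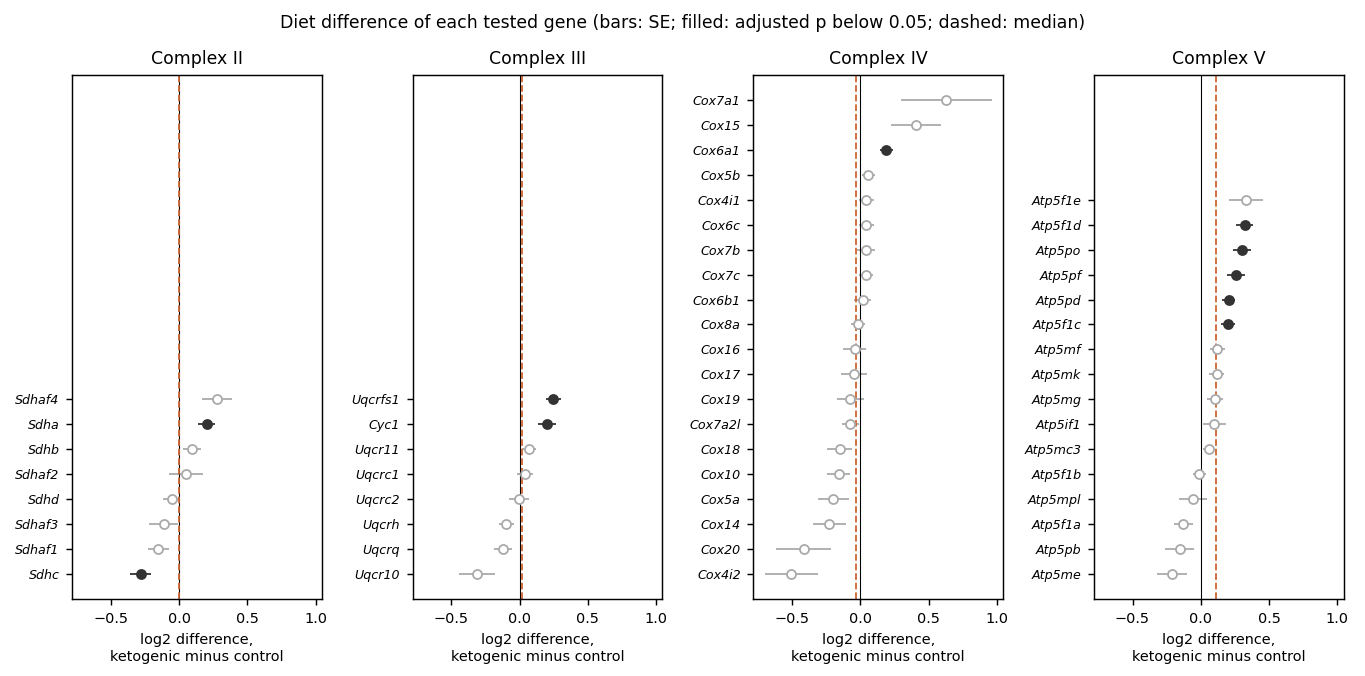
Log2 difference, ketogenic minus control, with its standard error for each of the 52 tested genes, in 1 panel for each complex; filled points passed an adjusted p of 0.05 and the dashed line is the median. The filled points of complexes III, IV and V lie to the right of 0, while complex II has 1 on either side.

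The mean over the genes of each complex, assembly factors included, was also taken on every array, relative to the control mean. For complex V the control diet gave -0.078 to 0.098 and the ketogenic diet 0.074 to 0.141. The groups overlapped, because control replicate 1 lay at 0.098 and 2 of the 5 ketogenic arrays were above it. For complex II the ranges were -0.045 to 0.088 and -0.046 to 0.028, for complex III -0.033 to 0.083 and -0.066 to 0.055, and for complex IV -0.061 to 0.041 and -0.043 to 0.019. In complexes II, III and IV 0 of the 5 ketogenic arrays lay above all control arrays.

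**Figure D2:**
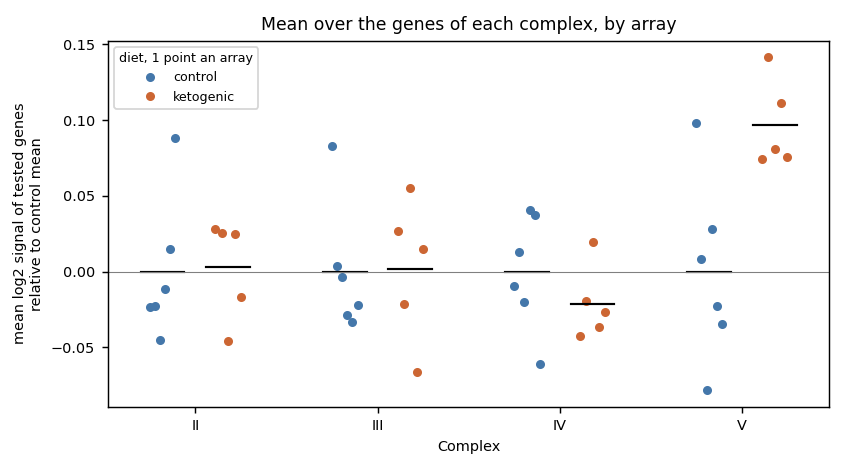
Mean log2 signal of the tested genes of each complex on each array, relative to the control mean (points), with the mean of each diet (lines). The genes of complexes II and IV include assembly factors. In complex V the ketogenic arrays lie at 0.074 to 0.141 and overlap only with control replicate 1; in complexes II, III and IV no ketogenic array lies above all control arrays.

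ATP synthase has a catalytic head, F1, in which a central stalk turns, a ring in the membrane that drives the stalk, and a peripheral stalk that holds the head still. The 5 genes that rose after quantile normalization all encode stalk subunits. Of the 3 central stalk genes 2 rose, of the 4 peripheral stalk genes 3 rose, and of the 9 other genes 0 passed the test. This holds for the main fit. With array weights on quantile-normalized values the membrane gene Atp5mk was called higher too, at 0.15 (adjusted p = 0.0472). On the values as deposited and with the 75th percentile as the centre, 4 of the 9 other genes were called higher as well. They were the ring gene Atp5mc3 and the membrane genes Atp5mf, Atp5mg and Atp5mk, at 0.18, 0.24, 0.23 and 0.22 as deposited (adjusted p = 0.0392, 0.0157, 0.0193 and 0.0286). The split into stalk and other genes was described after the values were seen and was not tested.

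Atp5f1d, the delta subunit of the central stalk, had a lowest, median and highest control signal of 9.10, 9.18 and 9.35, and ketogenic replicates 1 to 5 lay at 9.56, 9.68, 9.50, 9.47 and 9.45. All 5 ketogenic arrays were above all 6 control arrays. The gene rose by 0.32 (SE 0.06, adjusted p = 0.00594), from 9.21 ± 0.09 (SD, n = 6) to 9.53 ± 0.09 (SD, n = 5), a 1.25-fold higher signal. Over all tested probe sets, 3.91% had ketogenic values that were all above the control values and 3.08% had values all below. Among the 16 genes of complex V there were 4 above and 0 below.

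Atp5f1c, the gamma subunit that forms the axle of the motor, had control signals of 10.02, 10.07 and 10.20 (lowest, median, highest) and ketogenic signals of 10.30, 10.34, 10.12, 10.36 and 10.34. Ketogenic replicate 3 fell within the control range and the other 4 arrays lay above it. The gene rose by 0.20 (SE 0.05, adjusted p = 0.0259). This call was lost in 8 of the 11 fits with 1 array left out, with adjusted p up to 0.0711 without ketogenic replicate 4. Atp5f1e, the epsilon subunit, had the largest difference of the complex, 0.33 (SE 0.12, adjusted p = 0.0821), and was not called. Its ketogenic signals were 9.62, 9.82, 9.09, 9.51 and 9.38, beside control signals of 8.78 to 9.37, so that replicate 3 lay inside the control range. Without ketogenic replicate 3 Atp5f1e was called, at 0.42 (adjusted p = 0.0158).

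In the peripheral stalk, Atp5po encodes the subunit at the top of the stalk that touches the head, named for the oligomycin sensitivity it confers. Its control signals were 9.12, 9.27 and 9.41 (lowest, median, highest), and the ketogenic arrays lay at 9.62, 9.66, 9.45, 9.53 and 9.60, all of them above the controls. Atp5po rose by 0.30 (SE 0.07, adjusted p = 0.0101), a 1.23-fold higher signal. Atp5pd, subunit d, had control signals of 9.69, 9.83 and 9.87 and ketogenic signals of 10.03, 10.03, 9.98, 10.03 and 9.99. Its ketogenic arrays were close together, with an SD of 0.02, and above every control array. Atp5pd rose by 0.20 (SE 0.05, adjusted p = 0.0134).

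Atp5pf, coupling factor 6, had control signals of 9.19, 9.40 and 9.56 and ketogenic signals of 9.69, 9.74, 9.60, 9.66 and 9.62. The groups did not overlap, and the gene rose by 0.26 (SE 0.07, adjusted p = 0.0213). Atp5pb, subunit b, the remaining gene of the peripheral stalk, had the opposite sign, -0.15 (SE 0.11, adjusted p = 0.323), with a ketogenic SD of 0.30 against 0.10 on the control diet. It was called lower without ketogenic replicate 3, at -0.25 (adjusted p = 0.0479).

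In the head itself 0 of 2 genes were called. Atp5f1b, the catalytic beta subunit, had control signals of 11.20, 11.35 and 11.43 and ketogenic signals of 11.40, 11.27, 11.39, 11.38 and 11.22, a difference of -0.011 (SE 0.05, adjusted p = 0.895) with full overlap. Atp5f1a, the alpha subunit, stood at -0.13 (SE 0.07, adjusted p = 0.203), with control replicate 4 at 10.71 and the other controls at 10.33 to 10.40. The ring subunit gene Atp5mc3 had a difference of 0.057, and the small membrane subunits Atp5mf, Atp5mg and Atp5mk had 0.12, 0.11 and 0.12, none of them called. Atp5me and Atp5mpl, also of the membrane part, had -0.21 and -0.059. Atp5if1, whose product blocks the enzyme from running backwards and burning ATP, had 0.099 (adjusted p = 0.425). A p that misses the threshold does not show that these genes were equal on both diets.

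**Figure D3:**
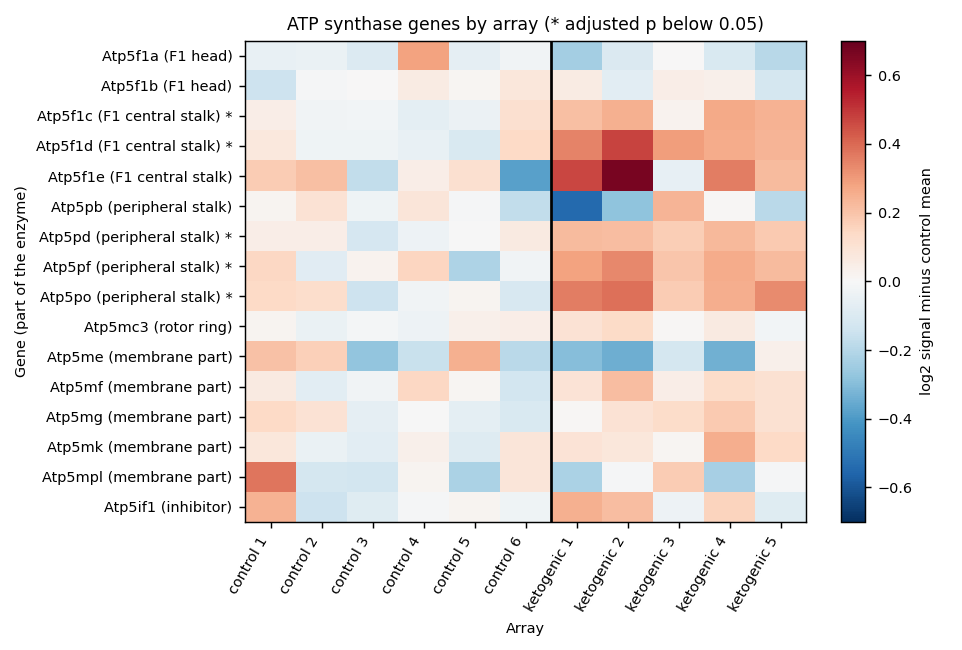
Log2 signal of the 16 ATP synthase genes on each of the 11 arrays, minus the control mean of the gene (colour, red above and blue below), ordered by part of the enzyme; asterisks mark an adjusted p below 0.05. The 5 marked genes are central or peripheral stalk genes and are red, above the control mean, on all 5 ketogenic arrays.

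Complex III takes electrons from ubiquinol through the Rieske protein and cytochrome c1. The genes of these subunits, Uqcrfs1 and Cyc1, were the 2 of its 8 genes that rose after quantile normalization. A split of the complex into these and other genes was not tested. Uqcrfs1, the Rieske iron-sulphur protein, had control signals of 9.41, 9.53 and 9.65 (lowest, median, highest) and ketogenic signals of 9.72, 9.78, 9.73, 9.82 and 9.82. Its groups did not overlap, and it rose by 0.25 (SE 0.06, adjusted p = 0.0133), a 1.19-fold higher signal.

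Cyc1, cytochrome c1, had control signals of 9.37, 9.53 and 9.61 and ketogenic signals of 9.79, 9.81, 9.77, 9.76 and 9.50. Ketogenic replicate 5 lay inside the control range and the other 4 lay above it. Cyc1 rose by 0.20 (SE 0.07, adjusted p = 0.0491), a call at the edge of the threshold that depended on single arrays. It was called without control replicate 6 or ketogenic replicate 5 and lost without any other array, with adjusted p up to 0.119 without ketogenic replicate 2. The core proteins Uqcrc1 and Uqcrc2, which carry no redox centre, had differences of 0.038 and -0.0054. The small subunits Uqcrh, Uqcrq and Uqcr10 had -0.099, -0.12 and -0.31 (adjusted p = 0.114 for Uqcr10). Uqcr11 had control signals of 10.06, 10.11 and 10.23, ketogenic signals of 10.23, 10.26, 10.05, 10.20 and 10.26, and a difference of 0.070 (SE 0.05, adjusted p = 0.361). On the values as deposited Uqcr11 was called higher too, at 0.19 (adjusted p = 0.0238). With the 75th percentile as the centre it was called at 0.23 (adjusted p = 0.0141).

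In the main fit complex II was the only complex with called genes in both directions, 1 higher and 1 lower. Sdha, the flavoprotein that oxidises succinate and so also belongs to the citrate cycle, had control signals of 9.38, 9.45 and 9.57 and ketogenic signals of 9.81, 9.55, 9.55, 9.74 and 9.68. Replicates 2 and 3 of the ketogenic diet lay within the control range. Sdha rose by 0.20 (SE 0.06, adjusted p = 0.0393). Sdhc, which anchors the enzyme in the membrane, had control signals of 9.59, 9.70 and 9.85 and ketogenic signals of 9.32, 9.35, 9.68, 9.50 and 9.28. Here only ketogenic replicate 3 reached into the control range, and Sdhc fell by 0.28 (SE 0.08, adjusted p = 0.0268).

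Both calls of complex II were lost under some settings. With 1 array left out Sdha was called in 4 of 11 fits and Sdhc in 6 of 11. On the values as deposited Sdhc stood at -0.15 (adjusted p = 0.167). The iron-sulphur subunit Sdhb had 0.096 in the main fit (adjusted p = 0.313) and was called higher as deposited, at 0.19 (adjusted p = 0.0489). The other anchor, Sdhd, has a pair of probe sets, with differences of -0.055 and 0.036. On the brighter of them the control signals were 9.26, 9.32 and 9.47 and the ketogenic signals 9.32, 9.24, 9.44, 9.26 and 9.20, so that the diets overlapped. Of the 4 assembly factors, which insert cofactors or protect the unassembled subunits, 0 were called, with differences from -0.15 for Sdhaf1 to 0.28 for Sdhaf4 (adjusted p = 0.0893).

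Complex IV had the smallest called share, 1 of 20 genes with assembly factors included and 1 of 11 over its subunits alone. Cox6a1, the form of subunit VIa found in most tissues, had control signals of 10.14, 10.18 and 10.29 and ketogenic signals of 10.39, 10.46, 10.29, 10.43 and 10.42. Ketogenic replicate 3 met the highest controls and the other 4 arrays lay above them. Cox6a1 rose by 0.19 (SE 0.05, adjusted p = 0.0198). The other 8 tested subunits of the general form, such as Cox4i1, Cox5b, Cox6c and Cox7c, were not called in the main fit. Their differences ran from -0.20 for Cox5a to 0.058 for Cox5b, and 7 of the 9 general subunits, Cox6a1 included, were positive. As deposited, Cox5b was called higher, at 0.18 (adjusted p = 0.0378). Centred on the 75th percentile, Cox4i1, Cox5b and Cox6c were called higher, at 0.21, 0.22 and 0.21 (adjusted p = 0.0393, 0.0241 and 0.0408). Cox7a2l, which helps complexes III and IV to associate, stood at -0.073. Cox8a had control signals of 11.18, 11.20 and 11.35, ketogenic signals of 11.12, 11.34, 11.10, 11.27 and 11.18, and a difference of -0.019 (SE 0.05, adjusted p = 0.825).

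**Figure D4:**
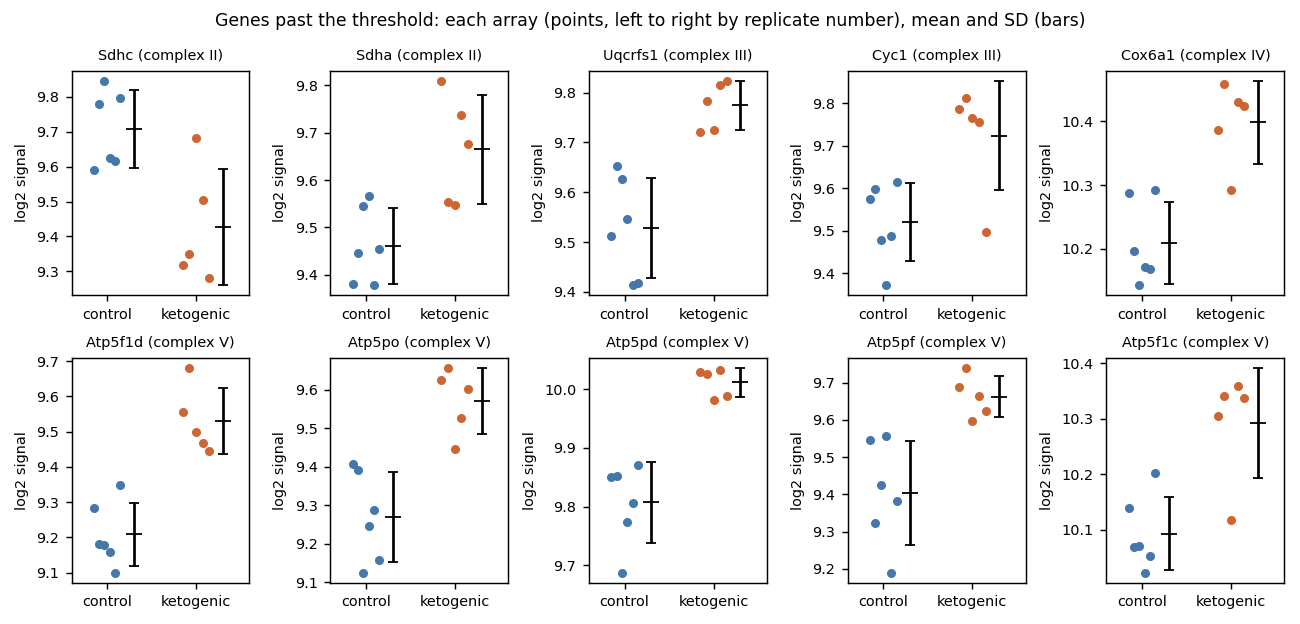
Log2 signal of the 10 genes of complexes II to V past the threshold on each array (points), with the mean and SD of each diet (bars); each panel has its own axis, which does not start at 0. In Uqcrfs1, Atp5f1d, Atp5po, Atp5pd and Atp5pf all ketogenic arrays lie above all control arrays, and Sdhc is the gene that is lower.

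The assembly factors of complex IV supply its haem and copper or insert its subunits. Of the 8 tested, 0 were called in the main fit, 7 had a negative difference, and the median was -0.11. The values ran from -0.41 for Cox20, which helps to fold subunit 2 (SE 0.20, adjusted p = 0.166), to 0.41 for Cox15, an enzyme of haem a synthesis (SE 0.19, adjusted p = 0.141). On the values as deposited Cox20 was called lower, at -0.57 (adjusted p = 0.0426). Cox14 and Cox18 stood at -0.23 and -0.15, and Cox17, which delivers copper, at -0.046. Cox11 was below the testing level, with a mean of 5.26 ± 0.37 (SD, n = 6) on the control diet and 4.84 ± 0.34 (SD, n = 5) on the ketogenic diet. The probe sets of these factors had SDs of 0.09 to 0.41, and the general subunits SDs of 0.03 to 0.23.

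Some subunits of complex IV exist in forms that are known from heart and skeletal muscle, lung or testis. Cox6a2 and Cox8b, the muscle forms, and Cox6b2, known from testis, lay below the testing level, with control means of 4.39, 2.42 and 2.69 and a floor of 2.33. Cox7a1, another muscle form, was at 4.99 ± 0.85 (SD, n = 6) and 5.62 ± 0.20 (SD, n = 5), a difference of 0.63 (SE 0.33, adjusted p = 0.197), with control replicate 6 at 3.41. Its control mean lies under the testing level of 5.17, so it passed the filter through its ketogenic values. Cox4i2, known from lung, had a difference of -0.51 (SE 0.19, adjusted p = 0.0862), with ketogenic replicate 3 at 6.40 against 5.15 to 5.51 on the other ketogenic arrays. Without that array Cox4i2 was called lower, at -0.71 (adjusted p = 0.00344). It was called in 6 of 24 alternatives, among them the values as deposited, at -0.69 (adjusted p = 0.0337).

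Some transcripts of the same complexes lie outside the rule. COX1 and COX2, catalytic subunits of complex IV encoded in mitochondrial DNA, had differences of 0.014 and 0.0067 (adjusted p = 0.830 and 0.920). They are among the brightest probe sets, whose quantile-normalized values are fixed by rank, and on the values as deposited they stood at 0.16 and 0.15, also not called. Of 7 probe sets shared with related sequences, 1 was called. It was a cytochrome c probe set at -0.20 (adjusted p = 0.0497), while the other cytochrome c probe set stood at 0.021. As deposited the called probe set stood at -0.074 (adjusted p = 0.449) and was not called. The shared probe sets for Uqcrb, Cox7a2, Atp5mc1 and Atp5mc2 had 0.0037, -0.030, -0.14 and -0.0039. A second probe set for Cox5a, shared with an unnamed locus, had -0.12, beside -0.20 for the member. The pseudogene Cox6c-ps1 had -0.17 and was not called.

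Of the probe sets below the testing level, 8 were members: Cox11, Cox6a2, Cox6b2, Cox8b, 1 each of Sdhaf2 and Atp5me, and 2 of Atp5if1. The untested probe set of Atp5me had means of 5.40 and 4.61 with SDs of 0.52 and 1.04. Each of these 3 genes also had a tested probe set, which stands for the gene above.

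Other genes around these complexes were counted from lists. Over all tested probe sets 8.62% were higher and 7.87% lower. The list for complex I, which feeds electrons to the same chain, had 7 of 35 genes higher and 2 lower, with a median of 0.059. It includes Ndufa4, at -0.016 and not called, whose product is now assigned to complex IV. The lowest p-values of the list belonged to the accessory subunit genes Ndufv3, which fell by 0.57 (SE 0.09, adjusted p = 0.00325), and Ndufa5, which rose by 0.44 (SE 0.09, adjusted p = 0.00617). Among assembly factors whose names fall outside the rule, 2 of 11 rose and 0 fell. Atpaf2, which helps to assemble the F1 head, rose by 0.69 (SE 0.10, adjusted p = 0.00212), from 6.24 ± 0.16 (SD, n = 6) to 6.93 ± 0.12 (SD, n = 5), and Coa3, a complex IV factor, rose by 0.26 (adjusted p = 0.0409). Atpaf1, also a factor of the head, had -0.15 (adjusted p = 0.263). Of 8 genes for the exchange of ATP and phosphate, Slc25a3, the phosphate carrier, rose by 0.23 (adjusted p = 0.00812) and Slc25a5, an ADP/ATP carrier, fell by 0.15 (adjusted p = 0.0367). Of 6 tested regulators of mitochondrial gene expression, Tfam and Esrra among them, 0 were called, with a median of -0.0072.

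NRF-1 and GABP are transcription factors known to bind promoters of many respiratory genes. Their short motifs were searched in the 250 bases before the transcription start in RefSeq sequence of the build GRCr8, on both strands, as GCGCA, any base and GCGC in a row for NRF-1 and as CCGGAAG for GABP, which overlapped in no member. A promoter was found for 49 of the 56 genes. An NRF-1 match was present in 8 of 49, or 16.3%, against 4.17% of all 27457 promoters, and a GABP match in 18 of 49, or 36.7%, against 7.74%. By complex, at least 1 of the motifs was present in 6 of 8 genes of complex II, 4 of 6 of complex III, 6 of 20 of complex IV and 7 of 15 of complex V. Among genes that rose it was 3 of 6, and among tested genes that were not called 20 of 39. The set of all promoters was not matched to the members for base composition or for expression. A match describes letters in a window and does not show binding.

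The promoters of the 3 genes that rose and hold a match, and of Atp5me, which was not called and holds both motifs, show where the matches lie, with the matches in capitals and the transcription start after the last base. Sdha (chr1:30764303-30764552, plus strand) has a pair of NRF-1 matches. Atp5po (chr11:44657484-44657733, minus strand) has 1 NRF-1 match that starts 59 bases before the transcription start. Atp5pf (chr11:37375102-37375351, minus strand) has 1 GABP match that starts 84 bases before it. Atp5me (chr14:1464610-1464859, plus strand) has an NRF-1 and a GABP match.
Sdha: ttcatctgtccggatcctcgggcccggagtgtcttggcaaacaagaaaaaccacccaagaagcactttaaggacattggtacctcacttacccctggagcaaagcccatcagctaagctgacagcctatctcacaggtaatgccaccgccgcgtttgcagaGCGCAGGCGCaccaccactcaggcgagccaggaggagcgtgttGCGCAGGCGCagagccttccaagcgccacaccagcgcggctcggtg
Atp5po: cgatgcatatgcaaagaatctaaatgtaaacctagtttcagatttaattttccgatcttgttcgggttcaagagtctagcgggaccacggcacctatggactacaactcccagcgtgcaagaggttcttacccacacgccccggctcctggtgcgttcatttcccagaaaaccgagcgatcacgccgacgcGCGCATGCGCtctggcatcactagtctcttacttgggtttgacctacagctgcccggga
Atp5pf: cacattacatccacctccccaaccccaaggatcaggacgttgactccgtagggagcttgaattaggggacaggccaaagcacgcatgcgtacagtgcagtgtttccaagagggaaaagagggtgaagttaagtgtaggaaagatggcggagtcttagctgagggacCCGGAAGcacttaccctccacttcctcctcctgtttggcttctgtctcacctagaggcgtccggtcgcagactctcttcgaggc
Atp5me: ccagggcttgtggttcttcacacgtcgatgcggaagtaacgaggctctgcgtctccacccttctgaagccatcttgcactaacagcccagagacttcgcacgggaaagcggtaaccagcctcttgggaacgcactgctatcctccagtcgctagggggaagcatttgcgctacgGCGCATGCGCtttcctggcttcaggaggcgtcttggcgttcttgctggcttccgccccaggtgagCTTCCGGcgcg

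Some properties of the arrays themselves moved with the diet. For Gapdh the 3 prime signal over the 5 prime signal, a ratio that goes up with degraded RNA, lay on the log2 scale at -0.068 to 0.148 for the control diet and 0.127 to 0.344 for the ketogenic diet (exact permutation test, two-sided, p = 0.00649, adjusted 0.00649). For actin it was 0.487 to 0.750 and 0.755 to 0.985 (exact p = 0.00216, the smallest that 6 against 5 allow, adjusted 0.00325). The median log2 signal as deposited was 6.48 to 6.56 and 6.32 to 6.46 (exact p = 0.00216, adjusted 0.00325). The mean log2 level of 14 probe sets for E. coli control transcripts was 7.28 to 7.64 on the control diet and 7.62 to 7.998 on the ketogenic diet, with only control replicate 4 above a ketogenic array. With both 3 prime to 5 prime ratios as covariates, 0 members and 6 of all 11899 probe sets were called. The 10 called genes then kept their signs, with Atp5po at 0.24, Uqcrfs1 at 0.29, Atp5pd at 0.16, Atp5f1d at 0.12, Cox6a1 at 0.057 and Atp5f1c at 0.027. Since the ratios and the diet move together, their parts cannot be told apart in this design.

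Scaling moved the medians of the complexes. On the values as deposited the medians were 0.22 for complex V, 0.14 for complex III, 0.089 for complex IV and 0.0017 for complex II, with -0.060 over all tested probe sets. Centred on the 75th percentile they were 0.26, 0.17, 0.12 and 0.035, with -0.027 over all. With assembly factors included, the signs for complexes II and IV thus turned with the scaling. Complex V stayed positive and highest of the 4 complexes in both settings. The count of member probe sets called higher was 17 and 19 of 54 in these settings, where 9.04% and 11.3% of all tested probe sets were called higher. These shares are not matched for brightness: the median level was 9.52 for member probe sets and 6.98 for all tested probe sets. As deposited, the difference of a bright member, Uqcrc2, went from -0.0054 to 0.12, and that of a dim member, Cox20, from -0.41 to -0.57. The part of signal level in these counts and medians was not tested. In each of these settings, 10 ATP synthase genes were called higher, 6 of the stalks and 4 of the ring and membrane part. Of all calls, 52.3% were higher after quantile normalization, 38.3% without further scaling of the deposited signals and 49.4% after centring at the 75th percentile.

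**Figure D5:**
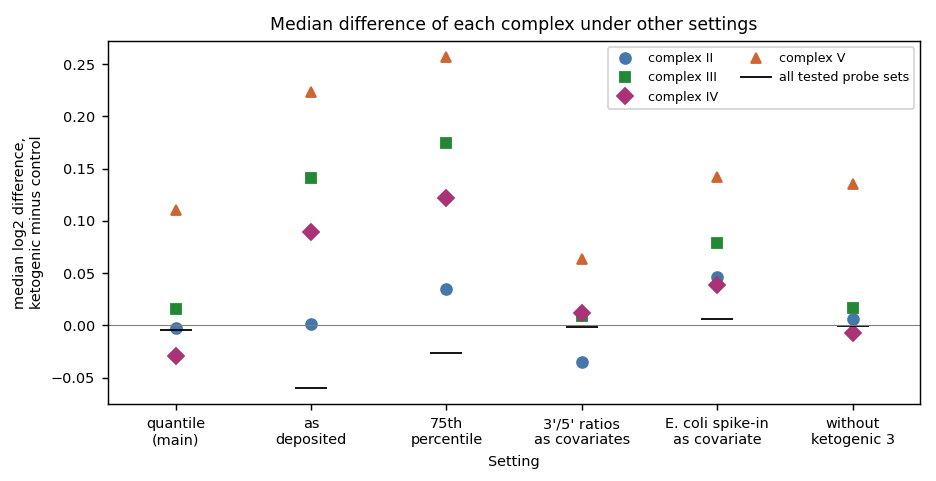
Median log2 difference, ketogenic minus control, of each complex (symbols) and of all tested probe sets (bars) under 6 settings. The genes of complexes II and IV include assembly factors. Complex V is at 0.11 after quantile normalization and 0.063 when the RNA quality ratios are covariates, and is the highest of the 4 complexes in each setting shown.

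The arrays did not contribute alike. Of the 9 genes that rose, all 9 were above the control mean on ketogenic replicates 1 to 4 and 8 on replicate 5. On ketogenic replicate 3, 3 of the 9 lay within the control range, and their median difference from the control mean was 0.18 on that array against 0.22 to 0.27 on the other 4. Without ketogenic replicate 2 the member probe sets called higher were 5, and without ketogenic replicate 4 they were 4, with 3 ATP synthase genes in each. Calls over all probe sets moved in the same way: 3.57% were higher without ketogenic replicate 2 and 3.41% without ketogenic replicate 4. Without ketogenic replicate 3 the members called higher were 11 and those called lower 4, with 13.3% of all probe sets higher and 13.3% lower.

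Bulk hippocampus holds several cell types, and fewer cells of a type and less RNA per cell cannot be told apart. Of 12 neuron markers, among them Slc17a7 and Prox1 of hippocampal neurons, 0 were called, with a median of -0.051, and their summed signal was 13165 to 14196 on control and 12748 to 14266.5 on ketogenic arrays. Markers of other cells included members that were lower and 0 that were higher, where 7.87% of all tested probe sets were lower and 8.62% higher. Lower were 2 of 9 astrocyte markers (summed signal 10469 to 11161 on control and 9749 to 11102 on ketogenic arrays) and 2 of 7 oligodendrocyte markers (9153 to 10925 and 8240 to 10356). For microglia 2 of 7 were lower (901 to 1058 and 802 to 978), and for vessels 1 of 5 (797 to 940 and 631 to 834). Choroid plexus markers were lower in 4 of 7 (928 to 2775 and 628 to 1168) and red blood cell markers in 4 of 4 (1168 to 1623 and 295 to 385). Only the sums of the red blood cell markers did not overlap between the diets. Of 3 tested muscle markers 0 were called. Their part in the differences of the respiratory genes was not tested.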

How the data were processed

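RNA from 11 hippocampus samples was measured on oligonucleotide arrays, and the deposited values are probe set intensity on a linear scale, with a trimmed mean near 150.02 on every array. How the authors made these intensities is not given in the sources used here, nor is any batch or scan date. Medians of the arrays spanned 0.24 on the log2 scale, above the limit of 0.1 set for using the values without further scaling. All 15923 probe sets were therefore quantile normalized, floored at the pooled 5th percentile (signal 5.02) and log2 transformed. The 57 control probe sets and the dimmest 25% were left out, and 11899 probe sets were tested with limma 3.58.1 in R 4.3.3 (lmFit, eBayes with a variance trend, two-sided, Benjamini-Hochberg over all probe sets, threshold 0.05). A gene is represented by its brightest tested probe set. Gene names are the platform annotation's, and 61 of 62 members had their gene ID in the RefSeq table, with 0 symbols changed.

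All members are accounted for; every called member is named, and for called members and the brightest uncalled member of each complex all 5 ketogenic signals and the lowest, median and highest of the 6 control signals are given. Other genes given with values were chosen after their values were seen. Members and lists were chosen with earlier results of these data known. On simulated data of the same 11899 probe sets, 56 of 100 planted log2 changes of 0.5 and 89 of 100 of 1 were called, with 11 of 156 calls not planted. The simulated noise was independent between arrays and probe sets. The called members differed by less, 0.19 to 0.32 in size, so these rates do not carry over to them. The number of arrays limits the precision. Alternatives changed the scaling, filter, floor, model, covariates and arrays 1 at a time.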

Additional observations from a re-analysis of the deposited data

Results flagged for a closer look

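In 9 of the 120 groups of arrays examined, 1 array stood apart from the others of its diet by Dixon's gap ratio, the gap to the nearest array over the whole range; chance gives about 1 in 20, or 6.0 of 120. Ketogenic replicate 3, whose title ends differently from the others, was the array in 3 of the 9.

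In the ketogenic group, Cyc1 had a ratio of 0.821, with replicate 5 at 9.50 and the others at 9.76 to 9.81. Atp5f1c had 0.772, with replicate 3 at 10.12 and the others at 10.30 to 10.36. Uqcr11 had 0.742, with replicate 3 at 10.05 and the others at 10.20 to 10.26, and Cox4i2 had 0.7105, with replicate 3 at 6.40 and the others at 5.15 to 5.51. Cox20 had 0.720, with replicate 1 at 5.30 and the others at 6.02 to 6.30.

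In the control group, Atp5f1a had a ratio of 0.819, with replicate 4 at 10.71 and the others at 10.33 to 10.40. Cox8a had 0.737, with replicate 6 at 11.35 and the others at 11.18 to 11.22, and the pseudogene Cox6c-ps1 had 0.689, with replicate 3 at 7.39 and the others at 6.46 to 6.75. The mean of complex III had 0.683, with replicate 1 at 0.083 and the others at -0.033 to 0.0037.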

How the results depend on the processing

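The 10 called genes kept their signs under all 25 alternatives run. Alternatives that changed only the filter, floor, variance trend, threshold or averaging of probe sets left these differences as they were. Their sign could not turn there. Over members and alternatives 1154 gene results stayed on their side of the threshold with the same direction, 65 lost and 40 gained a call, and 62 of uncalled genes turned sign. Called in all 11 fits without 1 array were Uqcrfs1, Atp5f1d, Atp5pd and Atp5po, against 9 for Cox6a1 and Atp5pf, 6 for Sdhc, 4 for Sdha, 3 for Atp5f1c and 2 for Cyc1.

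On the values as deposited, 17 members were higher and 2 lower, Cox20 and Cox4i2, beside 9.04% and 14.6% of all tested probe sets. There 10 complex V genes were higher, and the medians of complexes III, IV and V were 0.14, 0.089 and 0.22. Centred on the 75th percentile, 19 members were higher and 1 lower, beside 11.3% and 11.6% of all tested probe sets. There 10 complex V genes were higher, with medians of 0.17, 0.12 and 0.26. With array weights 3136 probe sets were called, and 12 members were higher and 2 lower, beside 13.4% and 12.9% of all tested probe sets. At a threshold of 0.1, 3070 probe sets were called, and 11 members were higher and 2 lower, beside 13.2% and 12.6%. Without the variance trend 5 members were higher and 0 lower, beside 7.08% and 6.44% of all tested probe sets. With both RNA quality ratios in the model 6 probe sets, 0 members in either direction and 0 complex V genes were called, and the median of complex IV was 0.012. With the bacterial spike-in level as a covariate 616 probe sets, 3 members higher, 0 lower and 3 complex V genes were called. Of all tested probe sets 2.68% were higher and 2.50% lower there. With the E. coli spike-ins alone, chosen after seeing the data, 975 probe sets were called. There 6 members were higher and 2 lower, beside 3.77% and 4.42% of all tested probe sets. The medians were 0.047, 0.079 and 0.039 for complexes II, III and IV.

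Same-numbered samples showed no pairing at the limit of 0.1 set for the correlation of their deviations. The 5 correlations were 0.0089 to 0.077, all positive, and 2 of 5 correlated best with their own number. Weak pairing is therefore not excluded. With the replicate number as a block 1807 probe sets were called, 7.96% higher and 7.23% lower. Of the members 9 were higher and 2 lower, and the median of complex II was 0.040. Sdha lost its call there (adjusted p = 0.073).

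With 1 array left out, all calls ranged from 797 (without ketogenic replicate 4) to 3163 (without ketogenic replicate 3), members higher from 4 to 11, members lower from 0 to 4 and complex V genes higher from 3 to 6. The medians ranged from -0.035 to 0.040 for complex II, -0.0065 to 0.040 for complex III, -0.041 to -0.0077 for complex IV and 0.085 to 0.14 for complex V. The causes of these changes were not tested.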
